A study of Mus musculus with 18 samples.

Results

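Long intergenic non-coding RNAs (lincRNAs) were described in regulatory T cells (Tregs), a class of CD4 T cells that depends on the factor Foxp3 and holds immune reactions in check. The members were the rows with the biotype lincRNA in the deposited count tables whose count over the library total reached at least 5 counts per 1000000 counts (CPM) in 3 or more of the 18 libraries. This rule gave 135 lincRNAs, of 3487 lincRNA rows and 46078 genes in all. They were thus chosen by their CPM, and their levels are given as a description. The injured groups were Tregs sorted on day 7 after a calvarial bone defect, a volumetric loss of quadriceps muscle, ligation of the left coronary artery to infarct the heart, or full-thickness punch biopsy of skin. Each injured tissue had 3 libraries, each from the cells of 3 mice. The controls were 6 libraries of spleen Tregs from uninjured mice. All mice were 10 weeks old, male, and of the Foxp3(DTR/GFP) strain, so every group carried the same reporter allele, in which the Foxp3 locus drives a diphtheria toxin receptor and a green fluorescent protein. Since the groups hold neither an uninjured counterpart of these tissues nor the spleen of an injured mouse, tissue and injury cannot be told apart.

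LincRNAs are transcribed, capped and often spliced like messenger RNAs, but most are not known to make a protein. Some build nuclear bodies (Neat1 is the scaffold of paraspeckles, and Malat1 gathers in nuclear speckles). Others are the precursors from which microRNAs (miRNAs) or small nucleolar RNAs (snoRNAs) are cut, and many start close to a coding gene on the opposite strand. In T cells, miR-155 is induced by antigen receptor signals and supports the fitness of Tregs, miR-142 marks blood cells, and the miR-17 cluster favours growth.

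Of the 135 lincRNAs, 9 had a miRNA of RefSeq inside them. Mature products of 5 such hosts are shown, though not all of them, because these hosts are compared between tissues later on. The sequences are those of RefSeq on GRCm38.p6, written 5′ to 3′, and the capitals mark the seed, bases 2 to 8, which pairs with target messages. The miRNAs themselves were not measured. The Gm26667 row is called Mir155hg in GENCODE M21, and its miRNA lies at chr16:84714143-84714165 on the plus strand.
mmu-miR-155-5p: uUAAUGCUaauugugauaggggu
mmu-miR-155-3p: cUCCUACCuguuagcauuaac
Mir142hg holds a pair of products with unlike seeds, on chromosome 11.
mmu-miR-142a-5p: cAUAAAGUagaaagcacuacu
mmu-miR-142a-3p: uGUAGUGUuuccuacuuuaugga
Mir17hg, on chromosome 14, holds products that fall into seed groups. miR-17-5p and miR-20a-5p share one seed, miR-19a-3p and miR-19b-3p share another, and miR-92a-3p has a seed unlike these. Further products, such as miR-18a-5p with its own seed, are not shown.
mmu-miR-17-5p: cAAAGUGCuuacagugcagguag
mmu-miR-20a-5p: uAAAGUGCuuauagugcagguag
mmu-miR-19a-3p: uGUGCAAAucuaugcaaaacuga
mmu-miR-19b-3p: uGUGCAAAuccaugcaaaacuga
mmu-miR-92a-3p: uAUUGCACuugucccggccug
Dleu2, also on chromosome 14, holds miR-15a and miR-16, whose 5p products have the same seed.
mmu-miR-15a-5p: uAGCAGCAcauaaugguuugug
mmu-miR-16-5p: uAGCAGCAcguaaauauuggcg
6720427I07Rik, on chromosome 13, holds let-7a, let-7d and let-7f, which share a single seed.
mmu-let-7a-5p: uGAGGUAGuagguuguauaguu
mmu-let-7d-5p: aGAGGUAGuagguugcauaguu
mmu-let-7f-5p: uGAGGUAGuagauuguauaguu

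Promoter windows of 300 bases, from 250 before to 50 after the RefSeq start on GRCm38.p6, were found for 72 of the 135 lincRNAs, 90 windows in all. The AP-1 motif TGANTCA, searched on both strands, was in 4 of the 90 windows, or 4.44%, against 7.81% of all 32851 windows of the table. The ETS motif CCGGAAG was in 15.56% of lincRNA windows, against 8.86% of all. The forkhead motif TGTTTAC was in 0 lincRNA windows, against 3.65% of all, the TATA box TATAAA was in 12.22%, against 13.62%, and the NF-kB consensus was in 5.56%, against 8.46%. These letter matches are a description and no evidence of binding. None of the 5 motifs contains another. The windows of 4 lincRNAs are shown because the results below turn on them. The window of 5830416P10Rik (Mirt1 in M21), which had its lowest levels in skin, lies at chr19:53464747-53465046 on the minus strand, and the AP-1 letters in capitals begin 140 bases before the start.
5830416P10Rik: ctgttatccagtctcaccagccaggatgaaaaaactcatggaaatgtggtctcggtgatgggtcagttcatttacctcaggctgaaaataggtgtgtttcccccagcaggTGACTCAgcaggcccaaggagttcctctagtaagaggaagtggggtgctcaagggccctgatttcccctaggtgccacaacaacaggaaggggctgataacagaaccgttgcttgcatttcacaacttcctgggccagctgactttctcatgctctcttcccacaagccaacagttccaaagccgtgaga
The window of 9330175E14Rik, also lowest in skin, lies at chr8:94435054-94435353 on the minus strand, and the NF-kB letters in capitals begin 118 bases before the start.
9330175E14Rik: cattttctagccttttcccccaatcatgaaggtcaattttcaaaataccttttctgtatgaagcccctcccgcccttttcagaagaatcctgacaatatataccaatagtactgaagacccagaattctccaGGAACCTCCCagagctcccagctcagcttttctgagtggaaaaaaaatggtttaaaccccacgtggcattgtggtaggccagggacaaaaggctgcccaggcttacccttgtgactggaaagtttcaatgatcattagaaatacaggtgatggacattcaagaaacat
The window of Snhg5, a snoRNA host that was higher in skin and heart, lies at chr9:88522848-88523147 on the minus strand, and the TATA letters in capitals begin 23 bases before the start.
Snhg5: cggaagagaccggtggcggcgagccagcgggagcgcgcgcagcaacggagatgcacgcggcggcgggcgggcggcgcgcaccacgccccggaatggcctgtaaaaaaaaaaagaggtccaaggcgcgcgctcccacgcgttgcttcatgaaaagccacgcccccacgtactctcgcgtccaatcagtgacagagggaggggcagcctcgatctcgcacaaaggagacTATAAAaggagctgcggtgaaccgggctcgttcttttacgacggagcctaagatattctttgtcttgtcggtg
The window of 2210408F21Rik, which was higher in every injured tissue, lies at chr6:31220101-31220400 on the plus strand and held none of the 5 motifs.
2210408F21Rik: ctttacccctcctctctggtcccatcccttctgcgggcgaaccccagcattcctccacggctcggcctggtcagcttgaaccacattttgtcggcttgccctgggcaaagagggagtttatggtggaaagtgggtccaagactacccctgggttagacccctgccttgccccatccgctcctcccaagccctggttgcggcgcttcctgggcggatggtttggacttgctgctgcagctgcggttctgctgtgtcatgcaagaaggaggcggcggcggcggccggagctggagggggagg

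Libraries held between 5970346 and 22635760 counts. Column names came in 2 styles, here called Endo (spleen replicates 1 to 3, all of skin, heart replicate 1) and Tregs (all others), and the fits held this style as a term. Through this term, bone and muscle were in effect set against spleen replicates 4 to 6, and skin against spleen replicates 1 to 3. Spleen replicates 1 and 2 stood apart from most other spleen libraries. Their counts differed from each other by a chi-square of 10.9 per degree of freedom, while each differed from spleen replicates 3 to 6 by 50.5 to 157. Other pairs lay within that range too, such as spleen replicates 4 and 6 at 61.5 and heart replicates 1 and 3 at 94.1. A skin call named below that was lost without spleen replicates 1 and 2 is given with its adjusted p in that fit. That fit left replicate 3 as the only spleen library of skin's naming style. Whether a call was lost through this pair or through fewer libraries therefore cannot be told apart. The 6 Treg markers summed to between 5070 and 7832 TMM-scaled CPM in the injured tissues, against 3341 to 3923 in spleen, and none was at 0. In what follows, levels are CPM scaled by the TMM method over all 18 libraries, and "called" means an adjusted p under 0.05 (false discovery rate, FDR) in edgeR's quasi-likelihood test over all genes tested. Fold changes are adjusted for naming style and given as log2 values ± SE, and need not equal the quotient of 2 levels.

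The rows Yam1 and Gm26917 of chromosome 17 took most of the lincRNA counts. Yam1 (Gm42418 in M21, chr17:39846958-39848788) and Gm26917 (chr17:39843013-39846341) lie side by side, and Yam1 overlaps a ribosomal RNA gene of M21 and an 18S ribosomal RNA pseudogene of RefSeq. Reads of Yam1 therefore cannot be told apart from ribosomal RNA. Whether the counts of the adjoining Gm26917 hold ribosomal reads as well was not tested. Together Yam1 and Gm26917 took 4.41% to 5.53% of counts in bone, 6.29% to 7.55% in muscle and 5.43% to 7.58% in heart. They took 8.09% to 14.2% in skin, against 6.16% to 18.1% in spleen. The highest share was in spleen replicate 1 and the lowest in bone, and within spleen the Endo-style libraries held 14.1% ± 4.76 and the Tregs-style libraries 7.76% ± 1.42 (SD, n = 3 each). Gm26917 was called lower in muscle (log2 fold change -1.10 ± 0.33, adjusted p = 0.0213) and heart (log2 fold change -1.62 ± 0.34, adjusted p = 0.00469), and Yam1 passed in no comparison. The muscle call of Gm26917 was lost in 4 of 17 alternatives, with an adjusted p of 0.112 without muscle replicate 1. Within spleen, Gm26917 alone held 3.40% ± 1.57 in the Endo style and 1.63% ± 0.18 in the Tregs style (SD, n = 3 each). Its calls are therefore uncertain as results about a lincRNA.

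**Figure D1:**
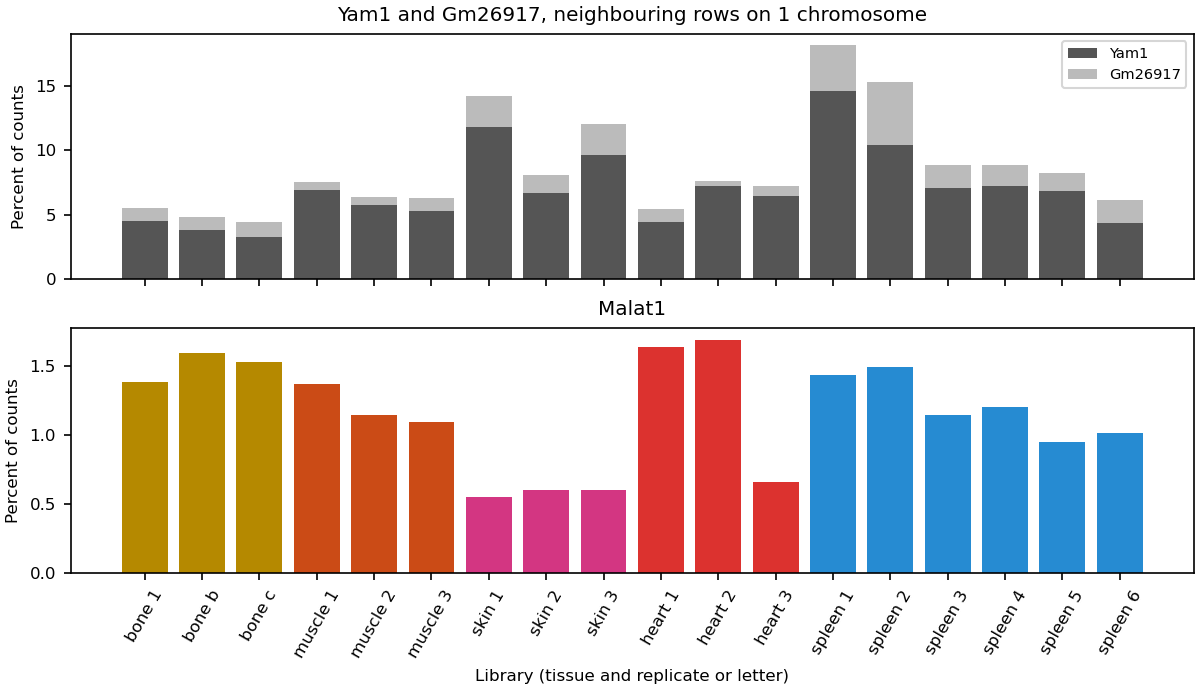
Percent of each library's counts taken by Yam1 and Gm26917 (upper panel, stacked bars) and by Malat1 (lower panel), with 1 bar per library, injured tissues left of spleen. The upper bars reach 18.1% in spleen replicate 1 and stay at or under 5.53% in bone, and the 3 skin bars of Malat1 are the lowest of all, at 0.552% to 0.604%.

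The next most abundant lincRNA was Malat1, at 13724 ± 762 CPM in bone, 11871 ± 1353 in muscle, 13662 ± 6189 in heart and 6202 ± 176 in skin, against 12361 ± 2848 in spleen (SD, n = 3 per tissue and 6 for spleen). Mean levels over the 18 libraries were at least 100 CPM for 8 lincRNAs, between 10 and 100 CPM for 46 and under 10 CPM for 81. Per kilobase of exon, the order was Yam1, Gm26917, Malat1 with 1675 CPM per kb, AW112010 with 272.8 and then AI504432 with 29.9. AI662270 (29.2), AU020206 (27.5), Snhg8 (27.1) and Snhg5 (24.6 CPM per kb) followed closely. The remaining 132 lincRNAs, without Yam1, Gm26917 and Malat1, summed to 2634 ± 65.3 CPM in bone, 2462 ± 327 in muscle, 2728 ± 373 in heart and 2383 ± 31.1 in skin, against 2387 ± 123 in spleen (SD). These sums lay close to each other, while the number of lincRNAs at 5 CPM or more varied, from 96 to 109 per bone library, 76 to 89 in muscle, 83 to 98 in heart and 70 to 79 in skin, against 88 to 107 in spleen. All skin libraries thus held fewer such lincRNAs than any spleen library. The same level chose the members, and 6 of the 18 libraries that could bring a lincRNA in were of spleen. These counts are therefore a description only, with no share over all genes beside them.

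In M21, 129 of the 135 lincRNAs had an entry. It still called 99 of them lincRNA and 26 another biotype, and it called 4 protein coding (6330403K07Rik, Fam169b, Kantr and 2210013O21Rik, the last now Nbdy). The exons of 24 overlapped those of a coding gene, and 25 began within 2 kb of a coding gene's start on the opposite strand. Whether counting used strand is not given in the sources used here, so reads of overlapping genes cannot be told apart. The median exonic length was 2880 bases, and 20 lincRNAs were a single block.

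Compared with spleen, 19 lincRNAs were called in bone, 39 in muscle, 50 in skin and, of 134 tested, 35 in heart, while 69 of the 135 were called in none of these. In bone, 13 were higher and 6 lower, that is 9.63% and 4.44% of the lincRNAs, against a background of 8.48% and 6.32% of all genes tested (14.8% in either direction). In muscle, 16 were higher and 23 lower, 11.9% and 17.0%, against 14.2% and 11.3% of all genes (25.5%). In skin, 19 were higher and 31 lower, 14.1% and 23.0%, against 15% and 12.8% of all genes (27.8%). In heart, 20 were higher and 15 lower, 14.9% and 11.2%, against 11.8% and 8.46% of all genes (20.3%). The shares of higher calls lay near the background in every tissue, and the share of lower calls exceeded it most in skin. The median log2 fold change of the lincRNAs was 0.08 in bone, -0.24 in muscle, -0.15 in heart and -0.49 in skin, beside 0.01, -0.01, -0.03 and -0.07 in the same order for all genes. All 4 comparisons share the spleen libraries, and fewer cells of a type and less RNA per cell cannot be told apart in such bulk samples.

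**Figure D2:**
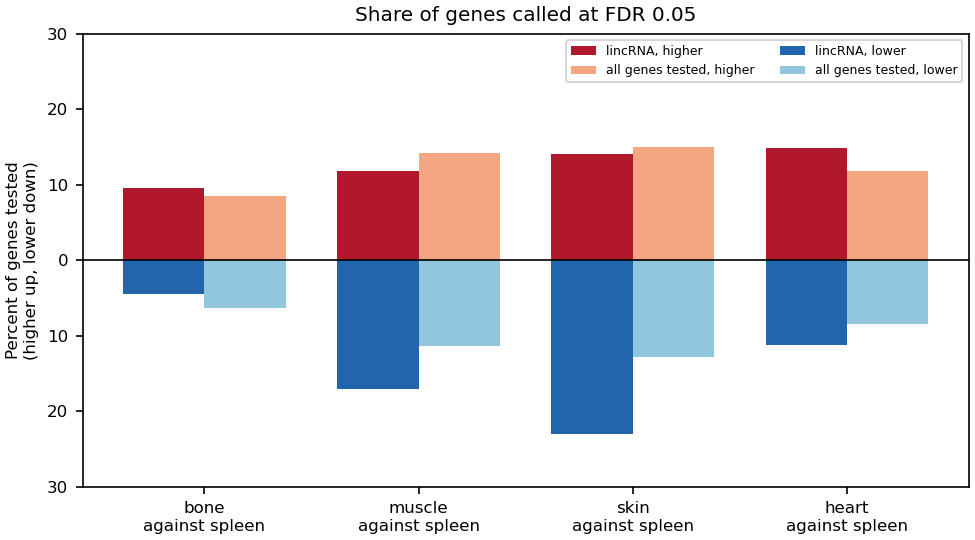
Share of lincRNAs (dark bars) and of all genes tested (light bars) called at FDR 0.05 in each injured tissue against spleen, in percent, with higher calls above the line and lower calls under it. The dark bar of lower calls in skin reaches 23.0%, beside 12.8% for all genes, in the fit with all 6 spleen libraries. The lincRNAs were chosen by their CPM, with more spleen libraries than libraries of any injured tissue, and all genes were not.

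Without spleen replicates 1 and 2, the skin comparison called 21 of the 135 lincRNAs, a share no higher than the 16.6% called over all genes. Of these 21, 20 were among the 50 (10 higher and 10 lower). All 50 kept their direction there. Without the same pair, bone had 18 called lincRNAs, muscle 38 and heart 27, with no share over all genes set beside these counts. The markers of B cells, 6 genes, summed to 9.56 to 11.1 CPM in skin and 5.95 to 11.2 CPM in muscle, against 33.6 to 86.4 CPM in spleen, with Ms4a1 at 0 in every muscle library. In bone, at 46.5 to 66.0 CPM, and heart, at 16.7 to 50.3 CPM, they overlapped with spleen. Those of macrophages, also 6 genes, summed to 9.45 to 16.3 CPM in bone, 3.97 to 13.1 in muscle, 4.56 to 49.9 in heart and 2.68 to 14.9 in skin, against 20.5 to 31.8 in spleen, with C1qa at 0 in all bone and muscle libraries. Neutrophil markers, 5 genes, summed to 0 to 0.255 CPM in skin and 0 to 1.35 in muscle, against 1.41 to 25.8 in spleen, with S100a9 and Elane at 0 in skin. They overlapped with spleen in bone, at 0 to 2.62 CPM, and heart, at 0.564 to 27.3 CPM. Erythroid markers, 4 genes, summed to 0 to 2.15 CPM in bone, 0 to 0.331 in muscle, 0 to 2.99 in heart and 0 to 0.382 in skin, against 2.27 to 18.6 in spleen, with Hba-a1 and Hbb-bs at 0 in skin. Endothelial markers, 4 genes, summed to 112 to 127 CPM in bone, 114 to 132 in muscle, 77.7 to 98.6 in heart and 59.2 to 64.2 in skin, against 129.5 to 166 in spleen. Fibroblast markers, 4 genes, lay the other way in bone, at 12.2 to 36.1 CPM, and skin, at 9.25 to 85.7 CPM, against 0 to 8.34 CPM in spleen. In muscle, at 1.96 to 38.9 CPM, and heart, at 4.51 to 7.31 CPM, they overlapped with spleen. Skeletal muscle markers, 4 genes, summed to 4.12 to 60.1 CPM in muscle, against 1.54 to 4.46 CPM in spleen. The part of these cell types in the lincRNA calls was not tested. Among the 46 lincRNAs that reached 5 CPM in all 18 libraries, 8 were called higher and 8 lower in skin. There were 5 and 8 in muscle, 9 and 3 in heart and 5 and 3 in bone. Of all genes tested, 15% were called higher and 12.8% lower in skin, and 14.2% and 11.3% in muscle. In heart these shares were 11.8% and 8.46%, and in bone 8.48% and 6.32%. No share over genes of such levels was computed, so the counts of the 46 are a description only.

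The lincRNAs called higher in each of the 4 comparisons are described first, and their number is no result in itself because the spleen libraries are shared. AU020206, whose nearest coding gene is Akap13, had 107, 108 and 110.1 CPM in bone, 117, 119 and 115 in muscle, 119, 133 and 76.4 in heart and 93.3, 90.3 and 93.4 in skin, against a lowest of 40.7, a median of 48.8 and a highest of 59.3 in spleen. Every injured-tissue library was above every spleen library. The log2 fold change was 1.00 ± 0.14 (adjusted p = 2.71e-05) in bone, 1.11 ± 0.15 (adjusted p = 4.14e-06) in muscle, 1.12 ± 0.19 (adjusted p = 0.000816) in heart and 0.98 ± 0.15 (adjusted p = 1.81e-05) in skin. It had the highest levels of the group.

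2210408F21Rik had 11, 4.38 and 10.5 CPM in bone, 6.31, 6.63 and 9.1 in muscle, 11.5, 10.8 and 6.53 in heart and 10.9, 10.5 and 11.5 in skin, against a lowest of 0.669, a median of 1.22 and a highest of 2.53 in spleen. All injured libraries were above all spleen libraries, and skin, at 3.06 ± 0.52 (adjusted p = 8.67e-05) on the log2 scale, was the most even. The log2 fold change was 2.50 ± 0.48 (adjusted p = 0.000702) in bone, 2.27 ± 0.48 (adjusted p = 0.00107) in muscle and 2.76 ± 0.45 (adjusted p = 0.000668) in heart. Its plus-strand exons overlap those of Lincpint, which is read from the minus strand and is known as a p53-induced lincRNA. Lincpint had 97.4, 116 and 118 CPM in bone and 132, 97.6 and 51.6 in heart, against a lowest of 40.2, a median of 47.8 and a highest of 72 in spleen. It was called higher in bone (log2 fold change 0.99 ± 0.31, adjusted p = 0.0456), where the libraries did not overlap with spleen, and in heart (log2 fold change 0.83 ± 0.26, adjusted p = 0.0404), where they did. The bone call was lost in 10 of 16 alternatives and the heart call in 11 of 17, with a heart fold of 0.44 (adjusted p = 0.345) without heart replicate 1.

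Gm26532 lies 1.07 kb from Zswim4 at chr8:84208920-84209609. It had 11.4, 6.69 and 16.3 CPM in bone, 18.6, 3.02 and 8.6 in muscle, 24, 12.5 and 7.16 in heart and 8.95, 4.96 and 3.44 in skin, against a lowest of 0.693, a median of 1.58 and a highest of 2.65 in spleen. The injured libraries varied several-fold within a tissue yet stayed above spleen. Its log2 fold was 3.16 ± 0.43 (adjusted p = 0.000149) in heart and 2.66 ± 0.57 (adjusted p = 0.00214) in bone, and the skin call (log2 fold change 2.13 ± 0.62, adjusted p = 0.0126) was lost in 4 of 17 alternatives, with adjusted p = 0.227 in limma-voom and 0.187 without spleen replicates 1 and 2. 2310031A07Rik had 12.1, 9.65 and 9.92 CPM in muscle and 4.82 to 7.65 CPM in the other injured tissues, against a lowest of 0.468, a median of 1.5 and a highest of 1.81 in spleen. Its muscle libraries were the highest of all (log2 fold change 3.28 ± 0.47, adjusted p = 1.38e-05), but its exons overlap those of Med7, a Mediator subunit. Its skin call was lost without spleen replicates 1 and 2 (adjusted p = 0.0805).

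1190002F15Rik, called Lockd in M21, lies downstream of Cdkn1b, which encodes the cell cycle inhibitor p27, and in mouse erythroid cells its locus is known as an enhancer of that gene. It had 19.3, 10.9 and 15.4 CPM in skin, 6.32, 5.1 and 9.14 in bone, 9.25, 4.67 and 5.54 in muscle and 4.33, 7.7 and 12.5 in heart, against a lowest of 1.4, a median of 2.91 and a highest of 4.5 in spleen. Skin was highest, and only heart, through replicate 1, overlapped with spleen. The fold was 1.97 ± 0.40 (adjusted p = 0.000543) in skin and 1.66 ± 0.39 (adjusted p = 0.00439) in bone, and the heart call (log2 fold change 1.59 ± 0.47, adjusted p = 0.0275) was lost in 6 of the alternatives run. A430093F15Rik, which starts 1945 bases from Cd5 on the opposite strand, had 68.2, 43 and 50.3 CPM in muscle and 59, 47.4 and 60.7 in skin, against a lowest of 24.3, a median of 28 and a highest of 28.8 in spleen. Both lay above all spleen libraries, with a log2 fold change of 1.00 ± 0.19 (adjusted p = 0.000326) in muscle and 0.96 ± 0.19 (adjusted p = 0.000545) in skin. In heart, called with 0.60 ± 0.19 (adjusted p = 0.0393), replicate 3 lay within the spleen range at 25.6 CPM, and the call was lost in 11 of 17 alternatives. Its bone call (log2 fold change 0.57 ± 0.19, adjusted p = 0.0408) was lost in 7 of 16. Gpr137b-ps and RP23-192C21.3 completed the group, with folds of 1.19 to 2.14 and 1.39 to 2.07 on the log2 scale. M21 lists Gpr137b-ps as a transcribed pseudogene, so its counts are uncertain. The bone call of Gpr137b-ps was lost without bone replicate 1 (adjusted p = 0.0806). Its heart call was lost with replicate number as a block and no style term (adjusted p = 0.116). RP23-192C21.3 had a skin fold of 0.69 (adjusted p = 0.587) without spleen replicates 1 and 2. Its calls were lost in 7 of 17 alternatives in skin, 6 of 17 in heart, 3 of 16 in bone and 1 of 17 in muscle. Its place among lincRNAs called in all 4 tissues is therefore uncertain.

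**Figure D3:**
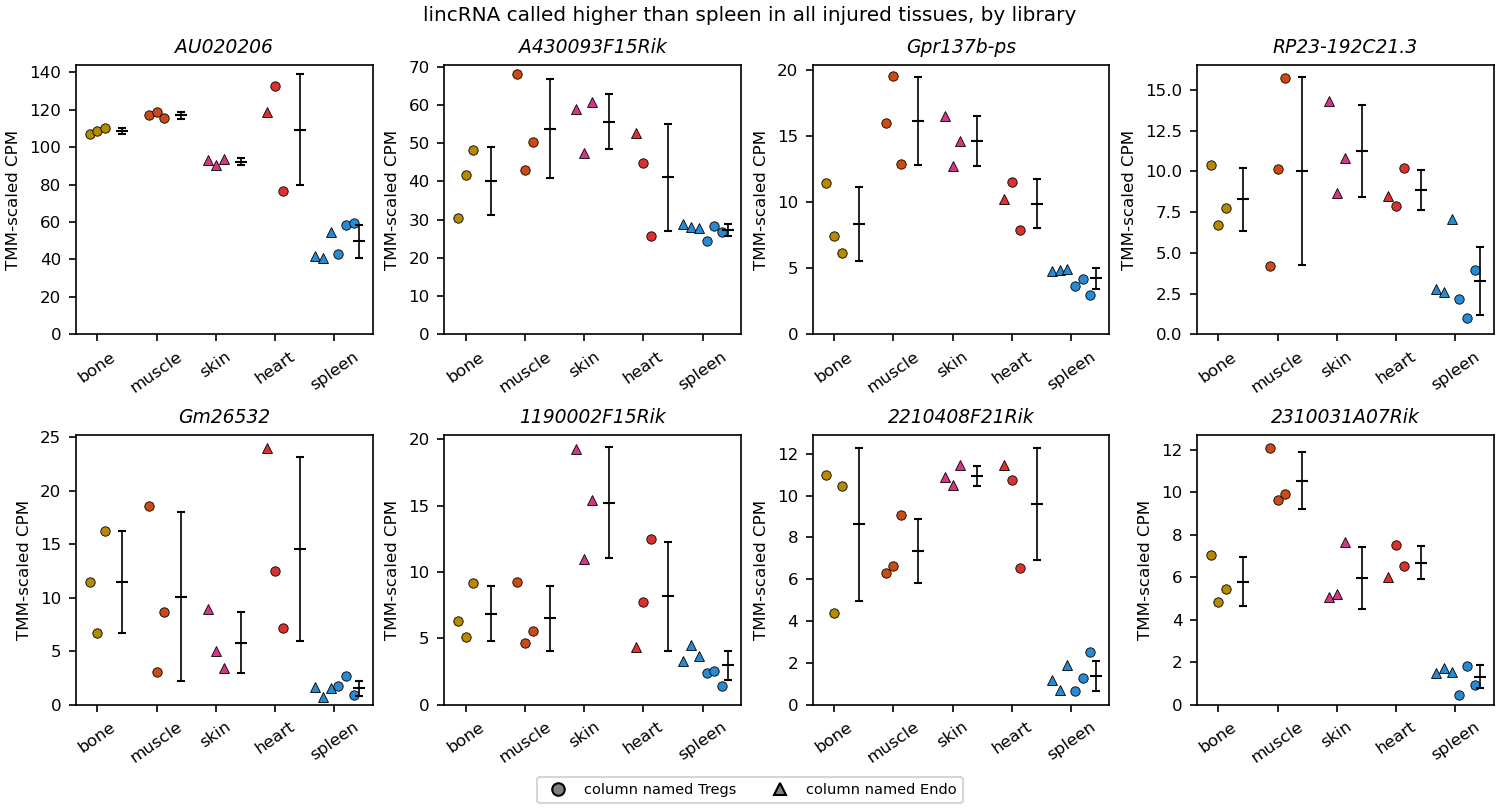
TMM-scaled CPM (y axes, linear, from 0) of the 8 lincRNAs called higher than spleen in every comparison, 1 point per library, with circles and triangles for the naming styles and the bar beside each group for mean ± SD. The means of the injured tissues lie above that of spleen in each panel, without overlap of libraries for AU020206, where spleen ends at 59.3 CPM and the lowest injured library has 76.4.

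Other lincRNAs were called higher in some comparisons. AI662270, near the Slfn genes, had 136, 106 and 105 CPM in muscle, 102, 123 and 108 in skin, 103, 107 and 164 in heart and 76.6, 68.5 and 82.7 in bone, against a lowest of 40.0, a median of 51.3 and a highest of 67.1 in spleen. Bone was closest to spleen and was not called (adjusted p = 0.11), whereas skin (log2 fold change 1.29 ± 0.15, adjusted p = 6.52e-07), heart (log2 fold change 1.21 ± 0.16, adjusted p = 8.99e-05) and muscle (log2 fold change 0.97 ± 0.15, adjusted p = 3.05e-05) were. RP23-110C17.2 (AI506816 in M21) had 81.3, 90.9 and 78.3 CPM in skin, against a lowest of 38.2, a median of 41.8 and a highest of 45.1 in spleen, and was called in skin (log2 fold change 1.02 ± 0.15, adjusted p = 1.23e-05), heart and muscle, in heart not without heart replicate 3 (adjusted p = 0.0603). 5330426P16Rik (Dubr in M21) had 38.1, 33.1 and 33.9 CPM in skin and 31.8, 24.6 and 29.8 in bone, against a lowest of 10.6, a median of 15.5 and a highest of 18.7 in spleen, and was called in skin (log2 fold change 1.33 ± 0.24, adjusted p = 0.000178), bone and heart. The bone call was lost in 4 of 16 alternatives (adjusted p up to 0.0949) and the heart call in 9 of 17 (up to 0.149). Gm19585, 153 kb from Satb1, had 29.8, 33.3 and 35.3 CPM in skin, against a lowest of 11.8, a median of 13.4 and a highest of 17.6 in spleen, and was called in skin (log2 fold change 1.17 ± 0.29, adjusted p = 0.00396), but not without spleen replicates 1 and 2 (adjusted p = 0.17). Gm26870, with folds called in skin and heart, overlaps many near-identical repeat genes, so its counts are uncertain, and its skin call was lost without spleen replicates 1 and 2 (adjusted p = 0.274) and its heart call without the style term (adjusted p = 0.101), without heart replicate 3 and without spleen replicate 5.

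Further higher calls were at lower levels. Gm10874 had 8.58, 8.59 and 12.2 CPM in muscle and 7.4, 12.9 and 3.98 in bone, against a lowest of 0.937, a median of 3.95 and a highest of 5.89 in spleen. It was called in muscle (log2 fold change 2.37 ± 0.45, adjusted p = 0.0004) and bone (log2 fold change 2.11 ± 0.45, adjusted p = 0.00191), and the bone call was lost without the style term (adjusted p = 0.061). Spleen replicates 4 to 6, of the Tregs style, held 0.937 to 3.1 CPM and spleen replicates 1 to 3, of the Endo style, 4.8 to 5.89 CPM. Gm26799, which starts 91 bases from the DNA repair gene Rad18, had 8.94, 11.9 and 6.76 CPM in heart, against a lowest of 0.693, a median of 2.08 and a highest of 5.76 in spleen, and was called in heart (log2 fold change 1.78 ± 0.48, adjusted p = 0.017). The call was lost without heart replicate 1 (adjusted p = 0.131), the highest p over the alternatives run, and also without heart replicate 2. RP23-42M8.2 had 6.77, 7.07 and 7 CPM in heart, against a lowest of 1.05, a median of 2.62 and a highest of 4.32 in spleen. It was called in heart (log2 fold change 1.36 ± 0.42, adjusted p = 0.034), and its counts are uncertain because its exons overlap those of Cracr2a, a regulator of calcium entry. The call was lost in 9 of 17 alternatives, with an adjusted p of 0.132 without heart replicate 1. RP23-148L8.3, which starts 372 bases from Lsm8, had 61.1, 31.4 and 10.9 CPM in heart and 15.1, 22.6 and 19.6 in skin, against a lowest of 6.44, a median of 11.9 and a highest of 13.5 in spleen. Heart replicate 1 was the highest library and heart replicate 3 lay within the spleen range, while all skin libraries lay above it. Both tissues were called (log2 fold change 1.15 ± 0.32, adjusted p = 0.00893 in skin), and its exons overlap those of Gm26809, so these counts are uncertain too. The heart call was lost without heart replicate 1 (adjusted p = 0.231), without heart replicate 2 and without spleen replicate 1, and the skin call in 1 fit of all 18 libraries (adjusted p = 0.26) and without skin replicate 2.

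Skin had the most lower calls. 5830416P10Rik (Mirt1), named as a transcript associated with myocardial infarction, had 3.41, 4.51 and 2.55 CPM in skin, against a lowest of 11.1, a median of 18.3 and a highest of 26.6 in spleen. Every skin library was below every spleen library (log2 fold change -2.20 ± 0.34, adjusted p = 2.98e-05). In heart it had 23, 12.9 and 14.2 CPM, within the spleen range (log2 fold change -0.18 ± 0.27, adjusted p = 0.70), and bone and muscle were not called either. 9330175E14Rik had 1.66, 3.95 and 5.35 CPM in skin, 8.75, 7.78 and 5.19 in heart, 9.42, 6.63 and 8.6 in muscle and 10.7, 10.0 and 10.6 in bone, against a lowest of 13.6, a median of 17.9 and a highest of 24.6 in spleen. All injured libraries were below all spleen libraries, and the fold was -2.50 ± 0.34 (adjusted p = 5.4e-06) in skin, -1.27 ± 0.24 (adjusted p = 0.00209) in heart and -0.99 ± 0.31 (adjusted p = 0.0223) in muscle. The muscle call was lost without muscle replicate 2 (adjusted p = 0.0889) and also without spleen replicate 6.

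Malat1 had 6065, 6141 and 6401 CPM in skin, against a lowest of 9668, a median of 11526 and a highest of 16126 in spleen, and was called lower there (log2 fold change -1.20 ± 0.17, adjusted p = 7.19e-06). The skin libraries lay within a narrow range and below all spleen libraries, and without spleen replicates 1 and 2 the log2 fold change was -0.74 (adjusted p = 0.0046). Heart replicate 3 was nearly as low, at 6516 CPM, beside 17183 and 17287 CPM in the other heart libraries. Gm37387 had 2.12, 3.27 and 4.46 CPM in skin, 4.96, 3.32 and 7.44 in muscle and 6.02, 9.98 and 5.35 in heart, against a lowest of 15.9, a median of 19.4 and a highest of 35.5 in spleen. These did not overlap with spleen (skin -2.51 ± 0.38, adjusted p = 1.79e-05, muscle -2.36 ± 0.35, adjusted p = 2.39e-05, heart -1.72 ± 0.28, adjusted p = 0.000577), while bone, at 12.9, 17.5 and 30.6 CPM, did. Gm15675, 1.84 kb from the complement regulator gene Cd55, had 0.646, 1.58 and 1.4 CPM in skin and 9.93, 10.1 and 9.45 in bone, against a lowest of 4.43, a median of 6.34 and a highest of 11.6 in spleen. It was lower in skin (log2 fold change -2.75 ± 0.51, adjusted p = 0.000238) and not in bone.

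**Figure D4:**
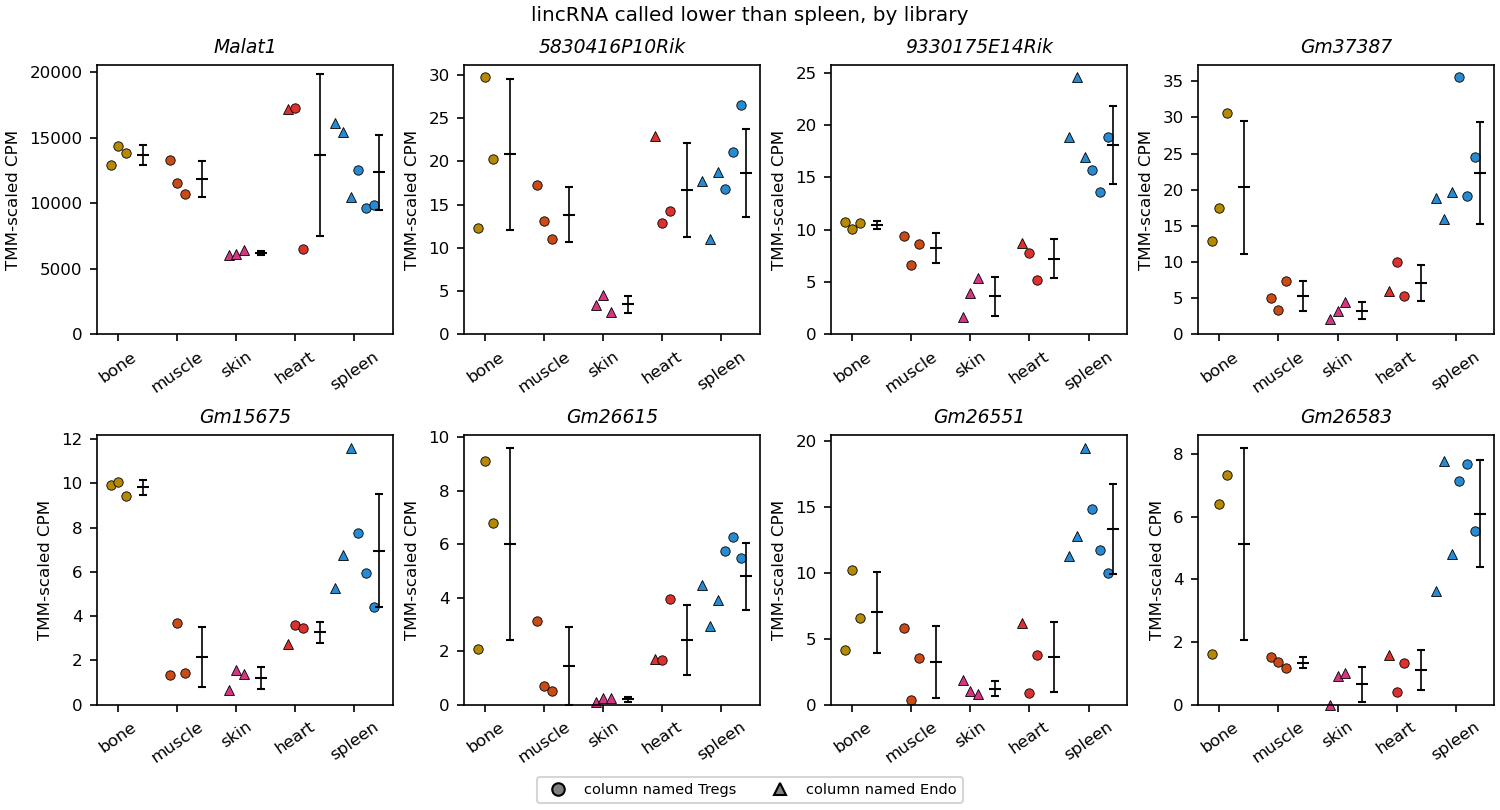
TMM-scaled CPM (y axes, linear, from 0) of 8 lincRNAs called lower than spleen in skin, 1 point per library, with circles and triangles for the naming styles and the bar beside each group for mean ± SD. The skin points lie below all other points for Malat1, 5830416P10Rik and Gm26615 and reach the levels of muscle or heart libraries in the other panels, and bone overlaps with spleen in every panel except that of 9330175E14Rik.

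Further lower lincRNAs were at low levels. Gm26615 had 0.0923, 0.226 and 0.255 CPM in skin, against a lowest of 2.94, a median of 4.97 and a highest of 6.26 in spleen (log2 fold change -4.31 ± 0.82, adjusted p = 0.000314), a call lost with limma-voom (adjusted p = 0.0583). Gm26551 had 1.85, 1.02 and 0.765 CPM in skin, against a lowest of 9.97, a median of 12.3 and a highest of 19.5 in spleen (log2 fold change -3.57 ± 0.63, adjusted p = 0.000197), and was also called lower in muscle and heart. BC043934 had 4.52, 3.38 and 2.68 CPM in skin, against a lowest of 7.29, a median of 9.65 and a highest of 17 in spleen. It was lower in skin (log2 fold change -2.04 ± 0.43, adjusted p = 0.00084), muscle (log2 fold change -1.76 ± 0.42, adjusted p = 0.00341) and heart (log2 fold change -1.48 ± 0.29, adjusted p = 0.00263), and the skin call was lost without spleen replicates 1 and 2 (adjusted p = 0.13). 5830405F06Rik was called lower in the same 3 tissues, but its exons overlap the T cell receptor segments Trbv4 and Trbv5, so its counts can hold receptor messages. Its heart call was lost without heart replicate 1 (adjusted p = 0.072). 2310001H17Rik, near Clec2d, had 33.7, 27.7 and 23.3 CPM in muscle, 32.7, 39.1 and 38.7 in bone and 31.6, 35 and 39 in heart, against a lowest of 51, a median of 57.1 and a highest of 80.6 in spleen. It was lower in muscle (log2 fold change -1.18 ± 0.18, adjusted p = 3.94e-05), bone and heart, without overlap, and its skin libraries, at 39.9 to 51.0 CPM, were not called. 1110038B12Rik was called lower in bone (log2 fold change -2.72 ± 0.51, adjusted p = 0.00278) and muscle, where spleen replicate 4, at 172 CPM, was far above the other spleen libraries, at 16.5 to 59.6 CPM. The muscle fold ranged from -2.88 to -0.51 over the alternatives run, and the bone call was lost without the style term (adjusted p = 0.0654).

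Gm26583 had 1.51, 1.36 and 1.16 CPM in muscle, 0, 0.903 and 1.02 in skin and 1.6, 0.393 and 1.34 in heart, against a lowest of 3.64, a median of 6.36 and a highest of 7.79 in spleen. None of these libraries reached the spleen range, and all 3 calls held in every alternative run, with a log2 fold change of -2.47 ± 0.51 (adjusted p = 0.00357) in heart. 5830432E09Rik, whose exons overlap those of the phosphatase gene Ptpre, had 3.76, 2.51 and 2.2 CPM in heart and 5.13, 2.04 and 2.56 in muscle, against a lowest of 8.06, a median of 9.58 and a highest of 17.8 in spleen. It was called lower in heart (log2 fold change -1.83 ± 0.32, adjusted p = 0.0011), muscle and skin, and the skin call was lost without spleen replicates 1 and 2 (adjusted p = 0.373). M21 places it antisense to Ptpre, so its counts are uncertain. 1810006J02Rik had 1.29, 1.24 and 1.4 CPM in skin, against a lowest of 5.18, a median of 6.39 and a highest of 8.31 in spleen, and its skin call (log2 fold change -2.30 ± 0.74, adjusted p = 0.0232) was lost in 7 of 17 alternatives, without spleen replicates 1 and 2 among them (adjusted p = 0.219). 5031425E22Rik, which starts 172 bases from Kmt2e, had 18.8 ± 3.47 CPM in skin and 17.7 ± 3.31 CPM in muscle (SD, n = 3 each), against a lowest of 24.9, a median of 36.8 and a highest of 45 in spleen. All libraries of both tissues lay below all spleen libraries and both were called (log2 fold change -1.09 ± 0.22, adjusted p = 0.000617 in skin). The skin call was lost without spleen replicates 1 and 2 (adjusted p = 0.0853) and the muscle call without spleen replicate 4 (adjusted p = 0.0518). Fam169b, a coding gene in M21, had 109, 69.9 and 82.9 CPM in muscle, against a lowest of 115, a median of 127 and a highest of 153 in spleen, and was called in muscle (log2 fold change -0.66 ± 0.16, adjusted p = 0.0034) and skin, in skin not without spleen replicates 1 and 2 (adjusted p = 0.0987). Gm17300 had 0.582, 0.558 and 0.469 CPM in bone and 27.3, 1.26 and 2.28 in heart, against a lowest of 0.702, a median of 8.44 and a highest of 13.9 in spleen. It was called lower in bone, muscle and skin, but its exons overlap those of Rcc1 and of the snoRNA host Snhg3, and without spleen replicate 4 the calls in bone (adjusted p = 0.225) and muscle (adjusted p = 0.164) were lost. In skin the call was lost without spleen replicates 1 and 2 (adjusted p = 0.0965). Heart, with replicate 1 far above the others, was not called.

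The test of equality of bone, muscle, skin and heart called 15 lincRNAs, 11.1%, against a background of 9.15% of all genes. Gm37387 (adjusted p = 0.00164), Gm15675 (0.00201), 5830416P10Rik (0.00214), Malat1 (0.00479) and AW112010 (0.00602) had the smallest adjusted p. AW112010, an immune-induced transcript that in mouse macrophages is known to be translated, had 310.2, 361 and 288 CPM in heart, 226, 253 and 203 in skin, 289.8, 224 and 167 in muscle and 172, 138 and 132 in bone, against a lowest of 131, a median of 212 and a highest of 239 in spleen. By mean, heart was highest and bone lowest among the injured tissues, and only heart was called against spleen (log2 fold change 0.77 ± 0.18, adjusted p = 0.007). Gm15340 had 1.16, 0.199 and 0 CPM in bone, against a lowest of 0.173, a median of 2.67 and a highest of 7.5 in spleen, and bone was the only comparison that called it (log2 fold change -3.42 ± 0.87, adjusted p = 0.00828), with overlap through spleen replicate 2. Without bone library b the test among tissues called 6 lincRNAs, and without bone library c it called 9, again with no share over all genes beside them.

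Of the nuclear and X-linked RNAs listed, 5 of 14 symbols were members. Neat1 had 292, 302 and 274 CPM in bone, 372, 195 and 202 in muscle, 451, 316 and 110.2 in heart and 229, 181 and 158 in skin, against a lowest of 92.2, a median of 121 and a highest of 189.9 in spleen. Bone and muscle were above spleen and were called (log2 fold change 1.12 ± 0.27, adjusted p = 0.00907 in bone, 0.94 ± 0.27, adjusted p = 0.016 in muscle), skin overlapped in part, and heart ranged most widely. The muscle call was lost without muscle replicate 1 (adjusted p = 0.072) and also without spleen replicate 5. Jpx and Ftx, both of the X inactivation centre, were called in no comparison. Jpx ranged over 1.18 to 5.1 CPM in the injured tissues and 1.81 to 6.23 CPM in spleen, and Ftx over 6.68 to 18.2 and 8.43 to 19.5 CPM. Miat, which gathers in its own nuclear domains, had 287 counts in bone, 186 in muscle, 91 in heart and 79 in skin, against 7 in the 6 spleen libraries. Scaled by library size, the ratio to spleen was 47.3 in bone (95% interval 22.6 to 118.6), 47.2 in muscle (22.4 to 119.0), 25.1 in skin (11.6 to 64.5) and 23.2 in heart (10.8 to 59.2), for counting error only. It was called in bone (adjusted p = 0.000271), muscle (0.000114) and skin (0.0423), and was filtered out of the heart test. The skin call was lost in 7 of 17 alternatives, without spleen replicates 1 and 2 among them (adjusted p = 0.327), and all 7 spleen counts lie in spleen replicates 1 to 3. Its level varied between libraries of a tissue, with 5.53, 5.85 and 0.547 CPM in bone and 3.2, 8.44 and 2.98 in muscle, 5.44, 1.13 and 1.27 in skin and 3.67, 3.69 and 0.393 in heart, and spleen replicates 4 to 6 held 0 counts.

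Of 20 listed snoRNA hosts, whose introns carry snoRNAs that guide the modification of ribosomal RNA, 8 were members. None was called higher in bone or muscle, where 8.48% and 14.2% of all genes were, while Epb4.1l4aos and Snhg12 were called lower in bone (2 of 8, against 6.32% of all genes) and Snhg8 and Snhg12 in muscle (2 of 8, against 11.3%). In bone the call of Epb4.1l4aos was lost in 11 of 16 alternatives (adjusted p up to 0.16) and that of Snhg12 in 5 (up to 0.151), and in muscle that of Snhg8 was lost without spleen replicate 4 (adjusted p = 0.161) and without muscle replicate 2. Snhg5 had 54.1, 61.6 and 63.4 CPM in skin, 64.4, 55.4 and 53.9 in heart, 54.8, 34.4 and 50.9 in muscle and 32.7, 23.3 and 28 in bone, against a lowest of 22, a median of 31 and a highest of 41.1 in spleen. Skin and heart lay above all spleen libraries and were called (log2 fold change 1.07 ± 0.22, adjusted p = 0.00054 in skin, 0.86 ± 0.19, adjusted p = 0.00554 in heart), and bone lay within the spleen range. The heart call was lost without heart replicate 1 (adjusted p = 0.0801). Snhg12 had 15, 15.5 and 11.2 CPM in muscle and 14.9, 14.7 and 16.9 in bone, against a lowest of 12.9, a median of 22.4 and a highest of 30.0 in spleen, and the groups overlapped through spleen replicates 1 and 2. Its fold was -0.99 ± 0.23 (adjusted p = 0.00283) in muscle and -0.84 ± 0.23 (adjusted p = 0.0146) in bone. Snhg4, Snhg6, Snhg17 and Snhg20 passed in no comparison. The list did not hold every host, since 11 members had a snoRNA gene of M21 inside them, among them 1110038B12Rik and RP23-110C17.2. Of these 11, 0 were called higher and 3 lower in bone, and 1 higher and 3 lower in muscle. In skin 2 were higher and 1 lower, and in heart 2 and 0.

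Of 13 symbols listed as miRNA hosts, 6 were members. Among them were 5830416P10Rik (Mirt1) and Lincpint, in which no miRNA of RefSeq lay. Gm26667 (Mir155hg) had 20.3, 20.6 and 9.99 CPM in heart, 12.1, 10.7 and 8.29 in skin, 14.7, 13.4 and 16 in bone and 18.4, 9.2 and 11.1 in muscle, against a lowest of 3.12, a median of 6.16 and a highest of 11.1 in spleen. It was called higher in heart (log2 fold change 1.47 ± 0.35, adjusted p = 0.00898) and skin (log2 fold change 1.37 ± 0.35, adjusted p = 0.00417), although both overlapped with spleen through replicate 5 of spleen, at 11.1 CPM. The heart call was lost without heart replicate 1 (adjusted p = 0.173) and the skin call in 3 alternatives, among them the fit without spleen replicates 1 and 2 (adjusted p = 0.22). Bone lay above every spleen library and was not called (adjusted p = 0.11). Mir17hg had 4.34, 6.99 and 5.23 CPM in skin, against a lowest of 7.59, a median of 11 and a highest of 16.8 in spleen, and was not called (log2 fold change -0.94 ± 0.42, adjusted p = 0.11). Dleu2 and Mir142hg, with the miR-16 and miR-142 sequences shown above, were called in no comparison either, nor was 6720427I07Rik, the let-7 host. Dleu2 ranged over 19.7 to 50.4 CPM in the injured tissues and 22.2 to 46.5 CPM in spleen, Mir142hg over 2.14 to 8 and 2.39 to 15.4 CPM, and 6720427I07Rik over 4.25 to 14 and 11.4 to 20.4 CPM. Of the 22 listed immune and growth lincRNAs 3 were members, and Pvt1, the neighbour of Myc, was called in none of the comparisons, with 15.5 to 32.8 CPM in the injured tissues and 17.9 to 32.7 CPM in spleen.

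The nearest coding gene within 100 kb was compared for those pairs in which both genes were tested. In bone, 16 lincRNAs of 107 pairs were called and for 1 of them the neighbour was called the same way. In muscle this held for 8 of 34, in skin for 12 of 41 and in heart for 8 of 28. As shares these were 6.25%, 23.5%, 29.3% and 28.6%, while among coding genes and their own nearest coding gene they were 14.5%, 22.2%, 24.9% and 21.2%. Neighbours called the opposite way were 0, 4, 4 and 1. Across genes, Spearman's rho between both folds was 0.26 in bone, 0.41 in muscle, 0.39 in heart and 0.20 in skin, beside 0.14, 0.18, 0.18 and 0.20 in the same order for coding pairs. Genes of a pair share libraries and are not independent replicates. Pairs with overlapping exons were kept, and 24 of the lincRNAs overlapped exons of a coding gene. Reads of such pairs cannot be told apart, and no rho without them was computed.

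**Figure D5:**
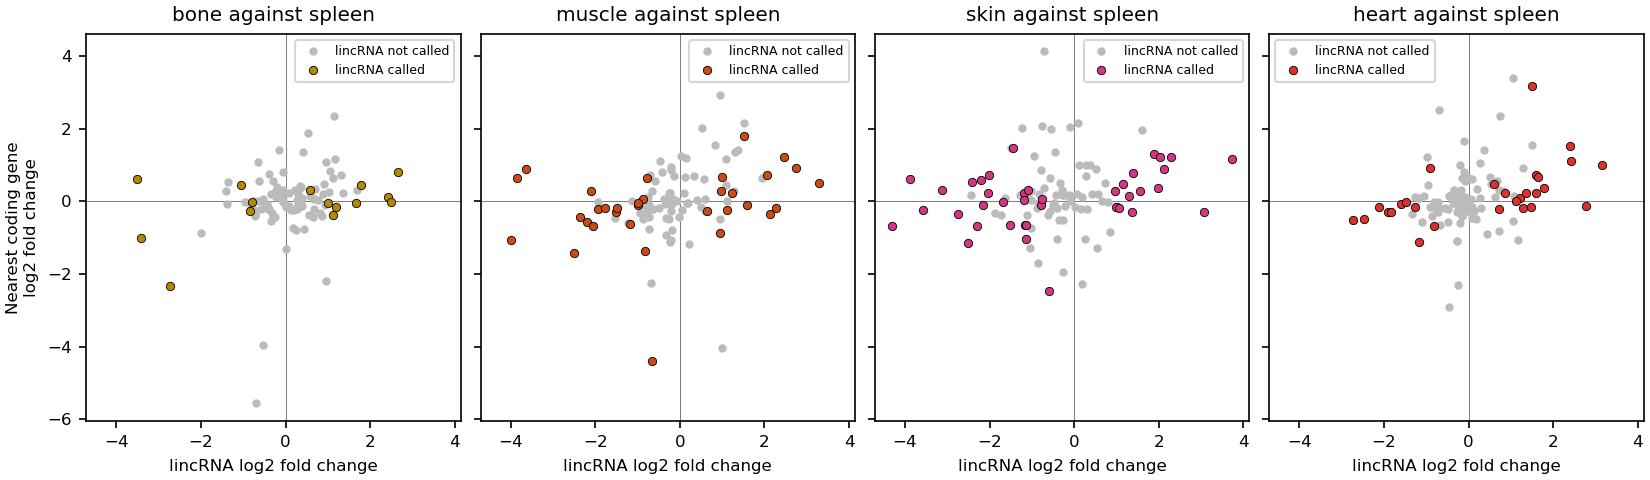
Log2 fold change of each lincRNA (x axis) against that of its nearest coding gene within 100 kb (y axis), 1 panel per injured tissue against spleen and 1 point per pair, with coloured points for called lincRNAs. Miat is left out because its fitted fold depends on the prior count, and 12 of the 41 lincRNAs called in skin that have such a neighbour had one called the same way. Pairs with overlapping exons are included.

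Some pairs differed together, and they were chosen after their values were seen. 5033430I15Rik and Atxn1, a transcriptional regulator, start 245 bases apart on opposite strands. 5033430I15Rik had 5.13, 5.58 and 3.56 CPM in muscle, 4.8, 5.64 and 4.46 in skin, 7.24, 11.3 and 4.8 in heart and 1.95, 1.08 and 1.48 in bone, against a lowest of 0.693, a median of 1.44 and a highest of 2.39 in spleen. Muscle, skin and heart lay above spleen and were called (log2 fold change 2.39 ± 0.45, adjusted p = 0.00172 in heart), while bone was not (adjusted p = 0.90). The muscle call was lost in 9 of 17 alternatives (adjusted p up to 0.147) and the skin call in 2, with 0.203 without spleen replicates 1 and 2. Atxn1 averaged 264 ± 8.79 CPM in bone, 349.6 ± 51.1 in muscle, 278 ± 27.7 in heart and 225 ± 20.3 in skin, against 96.9 ± 10.1 in spleen (SD), and was called higher in bone too (log2 fold change 1.40 ± 0.14, adjusted p = 2.39e-07).

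9330175E14Rik starts 747 bases from Nlrc5, a regulator of MHC class I genes, and overlaps its exons. Nlrc5 averaged 153 ± 13.6 CPM in skin, 350.2 ± 14.3 in bone, 339 ± 47.5 in muscle and 307 ± 29.8 in heart, against 339.7 ± 31 in spleen (SD), and was called lower in skin alone (log2 fold change -1.15 ± 0.14, adjusted p = 6.16e-07). The muscle and heart calls of 9330175E14Rik thus came without a call of Nlrc5. AI480526 and Setd1b, a histone H3 lysine methyltransferase gene, start 527 bases apart. AI480526 had 9.23, 9.93 and 11.1 CPM in skin, against a lowest of 10.7, a median of 22.3 and a highest of 26.6 in spleen (log2 fold change -1.13 ± 0.35, adjusted p = 0.0174), and Setd1b averaged 77.2 ± 7.30 CPM in skin, against 185 ± 30.9 in spleen (log2 fold change -1.05 ± 0.14, adjusted p = 3.42e-06). Only spleen replicate 6 lay within the skin range of AI480526, but the call was lost in 5 of 17 alternatives, without spleen replicates 1 and 2 among them (adjusted p = 0.223).

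Other pairs differed in opposite directions. 2310015A10Rik had 7.57, 7.67 and 8.41 CPM in skin, against a lowest of 11.7, a median of 20.8 and a highest of 24.5 in spleen, and was called lower in skin (log2 fold change -1.45 ± 0.29, adjusted p = 0.000419), muscle and heart. The muscle call was lost in 7 of 17 alternatives (adjusted p up to 0.246) and the heart call in 6 (up to 0.122). Zfp36l1, 7.53 kb away and the gene of an RNA-binding protein that speeds message decay, averaged 1004 ± 40.8 CPM in skin, against 448 ± 103 in spleen (log2 fold change 1.46 ± 0.16, adjusted p = 1.69e-07). 4930532G15Rik starts 179 bases from Eprs, the glutamyl-prolyl-tRNA synthetase gene. It had 1.18, 0 and 0.496 CPM in muscle, against a lowest of 1.9, a median of 6.24 and a highest of 9.06 in spleen (log2 fold change -3.85 ± 0.85, adjusted p = 0.00155), while Eprs averaged 253 ± 12.5 CPM in muscle, against 136 ± 33.2 in spleen (log2 fold change 0.65 ± 0.15, adjusted p = 0.00199).

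In all, 7 lincRNAs reached the level of the rule in libraries of 1 group only, so that group had to be high. They were Gm28942, Gm26564, Gm26517, Gm17638, Gm6297 and Gm26825 in spleen and Gm17767 in skin, and their calls are no support for a direction. Gm17767, between 10.1 and 15.6 CPM in skin, had at most 1.16 CPM in spleen. Without these 7, the calls in skin were 18 higher and 29 lower of 128, in the fit with all 6 spleen libraries. Of all genes tested in that fit, 15% were higher and 12.8% lower, but those were not chosen by level. The members just inside the threshold, by the third of their CPM values in falling order, were RP23-335C9.1 with 5.34, Gm26564 with 5.36 and C530050E15Rik with 5.395, and just outside were Gm16576 with 4.98, Gm26890 with 4.95 and a clone-named row with 4.895. Some lincRNAs split spleen by naming style. Gm26951 had 27.8, 19.7 and 6.82 CPM in spleen replicates 1 to 3 and 0.535, 0.129 and 0 CPM in replicates 4 to 6, and its lower call in skin (log2 fold change -2.65 ± 0.78, adjusted p = 0.0144) rests on the first 3, with an adjusted p of 0.62 without spleen replicates 1 and 2.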

How the data were processed

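RNA of sorted Tregs was purified with the RNeasy Plus Micro kit, and 1 ng of it went into Ovation Solo libraries, per the labels' protocols. Values in the deposited tables are raw counts per gene, on GRCm38, and STAR, featureCounts and limma are named, with no version, in the submitters' processing notes. Which annotation release and strand setting were used, and whether molecular identifiers were, is not given in the sources used here. Both tables hold 46078 genes with identical spleen columns, which were used once. Positions came from GENCODE M21, which held 45229 of the IDs.

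With edgeR 4.0.16 (R 4.3.3), low genes were removed by filterByExpr, libraries scaled by TMM, and each gene tested by glmQLFTest with robust fits. The p-values were adjusted by Benjamini-Hochberg over all genes tested, at FDR 0.05. The model held group and naming style and was fitted to 15 libraries (bone, muscle, skin, spleen), 9 (heart, spleen) or 18 (equality of injured tissues). SE values were derived from the F statistic. In simulated counts with 100 genes changed 4-fold, 97 were recovered in bone, 100 in heart and 63 among tissues. With 100 changed 2-fold, 15, 30 and 3 were recovered, and there were 7, 3 and 1 false calls. The simulation gave every gene the same dispersion, had no effect of naming style and changed no gene of low count. Recovery in the real libraries, and of lincRNAs at low levels, can therefore be lower. Alternatives used DESeq2 1.42.0, limma-voom (limma 3.58.1), RLE scaling, no filter, no style term, 1 fit of all 18 libraries, replicate number as a block, and each library left out.

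The members and lists were chosen with earlier results of these data known. Members named are the 5 highest and 5 lowest called ones without overlap per comparison, the 10 most abundant, the 5 with the smallest p among tissues, list members and those next to the threshold. Others were named after their values were seen, among them A430093F15Rik, Gpr137b-ps, RP23-192C21.3, RP23-110C17.2, Gm19585, BC043934, 9330175E14Rik and the neighbour pairs. Bone columns b and c could be tied to bone but not to a replicate number. Injured libraries were pools of 3 mice, and for spleen no pooling is stated.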

Additional observations from a re-analysis of the deposited data

Results flagged for a closer look

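In 77 groups of 6 spleen libraries, 1 for each named lincRNA, 4 had a library far from the others, where chance flags about 1 in 20. 1110038B12Rik had 172 CPM in spleen replicate 4, with the others at 16.5 to 59.6 CPM. 2310001H17Rik had 80.6 CPM in spleen replicate 6, with the others at 51.0 to 60.8 CPM. 5830432E09Rik had 17.8 CPM in spleen replicate 2, with the others at 8.06 to 9.90 CPM. Pvt1 had 32.7 CPM in spleen replicate 3, with the others at 17.9 to 22.0 CPM.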

How the results depend on the processing

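Of 131 calls of a named lincRNA in a comparison with spleen, 63 held in every alternative run, 68 were lost in at least 1, and none changed direction. Leaving out 1 library at a time gave 12 to 20 called lincRNAs in bone (19 with all libraries), 32 to 40 in muscle (39), 34 to 52 in skin (50), 23 to 32 in heart (35) and 6 to 20 in the test among injured tissues (15). The low of bone came without bone replicate 1 and that of heart without heart replicate 1. In skin, limma-voom called 32, and the fit without spleen replicates 1 and 2, added after seeing the data, 21. Among injured tissues, DESeq2 called 26, the fit without a filter 35 and the fit with a replicate block 5. The replicate block gave 55 in muscle, 52 in skin and 29 in heart, and it could not be fitted for bone. Under it Snhg12 in muscle was at -0.24 (adjusted p = 0.538). Same-numbered libraries of different groups deviated together with correlations of only -0.129 to 0.104, and in 6 of 36 cases a library correlated best with its own number, so the numbers were not taken as pairs. The causes of these changes were not tested. Counts of called lincRNAs under the alternatives stand without the share over all genes, except in skin without spleen replicates 1 and 2 (16.6%). They describe how the calls depend on the fit and are no result about lincRNAs as a class. At a minimum of 10 CPM there were 77 members, and over totals without Yam1 and Gm26917, also added later, 144. Depth limits the lincRNAs under 10 CPM most, and a call that was missed does not show equal levels.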
